A study of Mus musculus with 4 samples.

Results

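The genes described here are 10 imprinted genes, Igf2r, Airn, Dlk1, Meg3, Rian, Mirg, H19, Ndn, Peg3 and Grb10, out of 26286 genes in a table of read counts. They were matched by symbol, 4 through the authors' deposited log2 RPKM tables and 6 through a RefSeq gene table of the mouse. RNA came from LSK cells of C57BL/6 mouse bone marrow, a fraction without lineage markers and with Sca-1 and Kit on its surface, in which blood stem cells and multipotent progenitors are found. There were 2 libraries labelled Hhex-deleted and 2 libraries labelled wild-type, and the question was which RNAs change when Hhex, a homeobox transcription factor, is deleted. The labels name no Cre driver, age or treatment for either group. They also do not say that each library is a different mouse, so a p-value here speaks only of the spread among these libraries, which may be technical.

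An imprinted gene is read mainly from the copy inherited from one parent, because methylation laid down in egg or sperm marks the other copy at a control region. Imprinted genes lie in clusters in which a protein-coding gene and a long non-coding RNA are often read from opposite parental copies. In mouse, Igf2r is read from the maternal copy in most tissues, while Airn, an RNA antisense to it, is read from the paternal copy and silences paternal Igf2r. In the Dlk1 cluster, Dlk1 is paternal and Meg3, Rian and Mirg are maternal. Several of these genes are known from quiescent blood stem cells. Gene-level counts do not separate the parental copies.

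The 10 genes were chosen by their read counts and fold changes between the labelled Hhex-deleted and wild-type libraries, which were known when the set was put together, so these values are a description, with no test. Total counts lay between 27871827 and 29501591 per library. Hhex itself stood at 179 and 188 CPM (counts scaled to library size) in labelled Hhex-deleted libraries and at 127 and 115 CPM in wild-type libraries, so it was higher where the label gives a deletion. A gene-level count cannot check a deletion of part of a gene, and every direction below refers to libraries as labelled. Labelled Hhex-deleted replicate 1 differed from the other libraries in sex markers: Xist, the RNA that silences one X chromosome in females, stood at 2660 CPM there and at 2.59, 2.66 and 1.89 CPM in labelled Hhex-deleted replicate 2 and wild-type replicates 1 and 2. Fold changes of the 7 tested genes of the set without that library are therefore given. Kit stood at 605 and 698 CPM in labelled Hhex-deleted and at 566 and 601 CPM in wild-type libraries, and the T cell gene Cd3e at no more than 0.265 CPM in any library.

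Upstream sequences of the 4 genes at the centre of the description are shown with their CpG sites, which DNA methylation can mark. They were not chosen to cover the control regions of imprinting, and methylation was not measured. Each is the 250 bases before the start site in RefSeq, build GRCm38.p6, read 5′ to 3′ on the strand of the gene, with CpG dinucleotides in capitals. The Igf2r sequence lies at chr17:12769707-12769956 on the minus strand, the Airn sequence at chr17:12741061-12741310 on the plus strand, the Meg3 sequence, before the first of its 2 listed starts, at chr12:109540746-109540995 on the plus strand, and the Dlk1 sequence at chr12:109452573-109452822 on the plus strand.
Igf2r: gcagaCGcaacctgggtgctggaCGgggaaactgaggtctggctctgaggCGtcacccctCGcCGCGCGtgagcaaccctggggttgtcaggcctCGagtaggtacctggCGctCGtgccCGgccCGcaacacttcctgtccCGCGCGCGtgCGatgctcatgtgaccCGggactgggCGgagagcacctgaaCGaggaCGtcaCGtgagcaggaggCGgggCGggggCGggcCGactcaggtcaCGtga
Airn: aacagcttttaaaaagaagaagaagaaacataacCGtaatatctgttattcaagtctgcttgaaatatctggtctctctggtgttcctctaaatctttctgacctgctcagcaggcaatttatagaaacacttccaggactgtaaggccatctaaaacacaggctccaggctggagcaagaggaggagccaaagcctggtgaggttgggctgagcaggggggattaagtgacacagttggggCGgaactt
Meg3: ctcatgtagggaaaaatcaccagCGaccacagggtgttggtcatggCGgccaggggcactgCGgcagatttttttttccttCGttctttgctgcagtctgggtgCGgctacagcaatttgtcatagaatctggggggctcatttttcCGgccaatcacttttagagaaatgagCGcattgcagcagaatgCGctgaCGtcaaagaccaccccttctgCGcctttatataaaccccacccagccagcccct
Dlk1: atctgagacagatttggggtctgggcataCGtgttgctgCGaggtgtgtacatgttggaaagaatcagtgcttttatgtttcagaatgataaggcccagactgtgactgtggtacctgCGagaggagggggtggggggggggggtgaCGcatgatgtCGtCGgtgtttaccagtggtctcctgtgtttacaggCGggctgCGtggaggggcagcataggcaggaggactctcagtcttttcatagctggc

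These windows differed in CpG content. Igf2r held 27 CpG sites and Airn 2, while Meg3 held 10 and Dlk1 8, against a median of 6 over 32851 RefSeq promoters. Letters of 4 motifs were searched on both strands. TGCCGC, the core bound by the imprint-protecting factor ZFP57 when methylated, was found 1 time in the Meg3 window and in none of the windows of Igf2r, Airn or Dlk1, and 8.7% of all promoters held it. TGACGTCA, the cyclic AMP response element, was found 1 time in the Meg3 window, against 1.5% of promoters. TATAAA was found in the Meg3 and Airn windows and in 12.4% of promoters. ATTAA, whose reverse strand TTAAT holds the TAAT core of homeodomain sites, was found 1 time in the Airn window and in 24.9% of promoters. A match is a description of letters and not a binding site.

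Igf2r and Airn, which overlap on chromosome 17, were both far higher in the libraries labelled Hhex-deleted. Igf2r encodes the receptor that takes up insulin-like growth factor 2 and carries mannose 6-phosphate-tagged enzymes to lysosomes. It had 3997 and 4974 reads in labelled Hhex-deleted libraries and 410 and 596 reads in wild-type libraries, or 137 and 165 CPM against 15 and 20.9 CPM. The groups did not overlap. Its mean level was 151 ± 19.8 CPM against 17.9 ± 4.18 CPM (SD, n = 2 each), a log2 fold change of 3.07 ± 0.19 (standard error, SE), which is 8.42-fold.

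Airn had 193 and 275 reads in labelled Hhex-deleted libraries and 11 and 8 reads in wild-type libraries. Its mean level was 7.87 ± 1.77 CPM against 0.341 ± 0.0857 CPM (SD, n = 2 each). Its log2 fold change was 4.52 ± 0.33 (SE), which is 22.9-fold, and its groups did not overlap. The ratio of reads pooled over libraries was 23.2, with an exact 95% interval of 14.7 to 38.9 that covers counting error only. Per gene length, the level of Airn came to 19.7% and 22.6% of that of Igf2r in labelled Hhex-deleted libraries and to 10.9% and 5.48% in wild-type libraries. So the antisense RNA stood further above its wild-type level than the receptor gene did. No strand setting of the counting is given in the sources used here, and reads from overlapping genes on opposite strands cannot be told apart without it.

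The authors' deposited log2 RPKM values, which are scaled for gene length and library, put both genes on the same sides. Igf2r was listed at 4.01 and 4.3 in labelled Hhex-deleted libraries and at 0.84 and 1.29 in wild-type libraries. Airn was listed at 1.69 and 2.08 in labelled Hhex-deleted libraries and at -2.24 and -2.74 in wild-type libraries. Without labelled Hhex-deleted replicate 1 the log2 fold change was 3.20 for Igf2r and 4.73 for Airn.

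**Figure D1:**
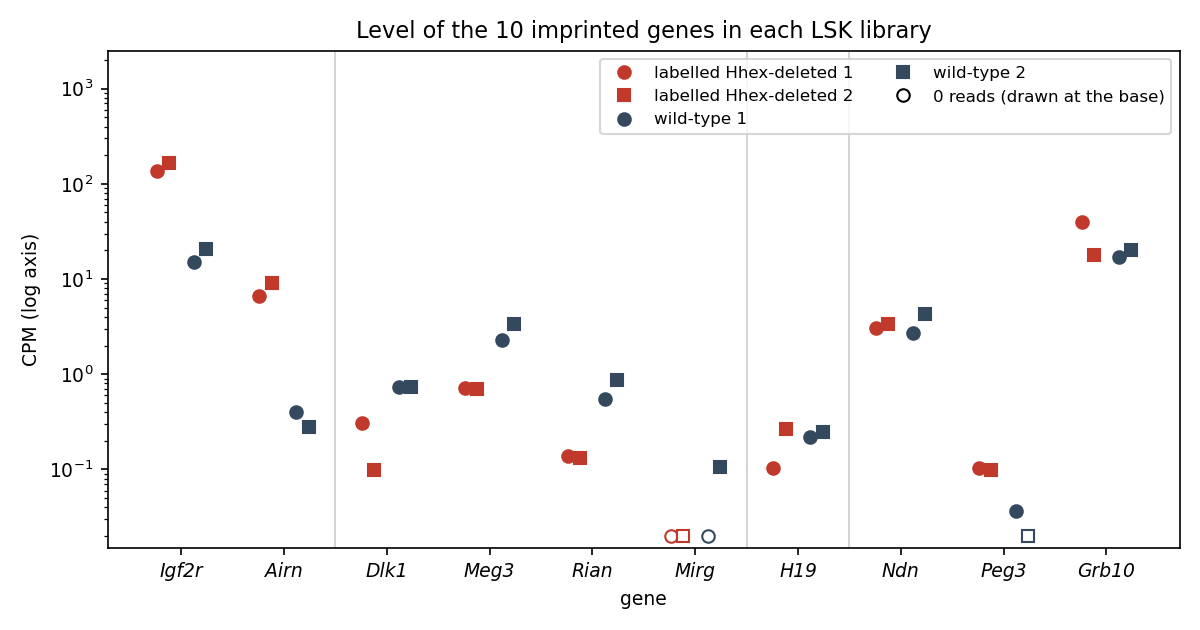
CPM of the 10 imprinted genes on a log axis, with 1 point per library, labelled Hhex-deleted in red and wild-type in dark blue, and libraries with 0 reads as open symbols at the base. Igf2r and Airn lie higher in both red libraries, Dlk1, Meg3 and Rian lie lower, and Ndn and H19 overlap. Grb10 is raised in labelled Hhex-deleted replicate 1, at 39.7 CPM.

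Among neighbours of Igf2r, which were also listed with earlier results of these data known, Slc22a3 rose and the other tested ones did not pass the test. Slc22a3 encodes an organic cation transporter that is imprinted through Airn in mouse placenta. It stood at 278 and 283 CPM in labelled Hhex-deleted libraries and at 195 and 158 CPM in wild-type libraries, 0.67 ± 0.11 (SE) on the log2 scale with an edgeR adjusted p of 0.0413. Slc22a3 missed the threshold when labelled Hhex-deleted replicate 1 was left out (edgeR adjusted p = 0.0799), likewise for replicate 2 of that label (0.114) and for wild-type replicate 2 (0.153). Map3k4, a kinase gene beyond Slc22a3, stood at a log2 fold change of 0.05. On the far side of Airn, the mitochondrial ribosome gene Mrpl18, the chaperonin gene Tcp1 and the thiolase gene Acat2 stood at 0, -0.05 and -0.1. Slc22a2 between Slc22a3 and Igf2r, Plg beside Slc22a3 and Mas1 beside Airn had at most 3 reads in any library.

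The Dlk1 cluster on chromosome 12 showed the opposite direction, at much lower read numbers. Meg3, a maternally read non-coding RNA, had 21 and 21 reads in labelled Hhex-deleted libraries and 63 and 97 reads in wild-type libraries. Its level was 0.719 and 0.697 CPM against 2.3 and 3.4 CPM, with groups that did not overlap. The log2 fold change was -2 ± 0.33 (SE), a level 4.01-fold higher in wild-type. Rian, the host RNA of small nucleolar RNAs downstream of Meg3, had 4 and 4 reads in labelled Hhex-deleted libraries and 15 and 25 reads in wild-type libraries. Its log2 fold change was -2.36 ± 0.53 (SE). Both labelled Hhex-deleted libraries again lay below both wild-type libraries.

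Dlk1, read from the paternal copy, encodes a membrane protein related to Notch ligands. It had 9 and 3 reads in labelled Hhex-deleted libraries and 20 and 21 reads in wild-type libraries, a log2 fold change of -1.83 ± 0.57 (SE). Its size depended on which labelled Hhex-deleted library was used: it was -2.83 without replicate 1, the library with Xist RNA, and -1.23 without replicate 2. Without replicate 1 of that label Meg3 stood at -2.03 and Rian at -2.39. Thus the paternal gene Dlk1 and the maternal RNAs Meg3 and Rian lay on the same side. Dlk1 and Rian did not pass edgeR's test, with 3 to 25 reads per library. Non-overlap of the groups was found for 45.5% of all genes tested. The pooled read ratios were 0.276 (exact 95% interval 0.132 to 0.535) for Dlk1, 0.248 (0.172 to 0.35) for Meg3 and 0.189 (0.0763 to 0.409) for Rian, counting error only. These intervals overlap, so the 3 genes cannot be ranked by the size of their difference. Mirg, which hosts microRNAs at the far end of the cluster, had 0 and 0 reads in labelled Hhex-deleted libraries and 0 and 3 reads in wild-type libraries, at the floor of 3 counts, so no fold is given.

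Per length, Meg3 and Rian lay close to each other within each library. The level of Rian was 68.6% of that of Meg3 in both labelled Hhex-deleted libraries and 85.7% and 92.8% in wild-type libraries. The level of Dlk1 was 115% and 38.3% of that of Meg3 in labelled Hhex-deleted libraries and 85.2% and 58.1% in wild-type libraries, so it varied more between libraries than between groups. The count table also held 49 microRNA genes from Dlk1 to Mirg. They had 0 reads in labelled Hhex-deleted libraries, and in wild-type libraries 0 and 3 reads. Libraries from a messenger RNA kit do not measure mature microRNAs.

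None of the 6 tested neighbours of the Dlk1 cluster passed edgeR's test. Begain, next to Dlk1 and imprinted in some tissues, stood at 2.23 and 3.22 CPM in labelled Hhex-deleted libraries and at 1.93 and 2 CPM in wild-type libraries. Its log2 fold change was 0.47 (edgeR adjusted p = 0.536). The transcription factor gene Yy1 stood at 0.09, the carrier gene Slc25a29 at -0.15, the tRNA synthetase gene Wars at 0.03, Wdr25 at -0.08 and the phosphatase subunit gene Ppp2r5c at 0.05. Rtl1 and Dio3, the other paternal genes of the cluster, had at most 1 read in any library.

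**Figure D2:**
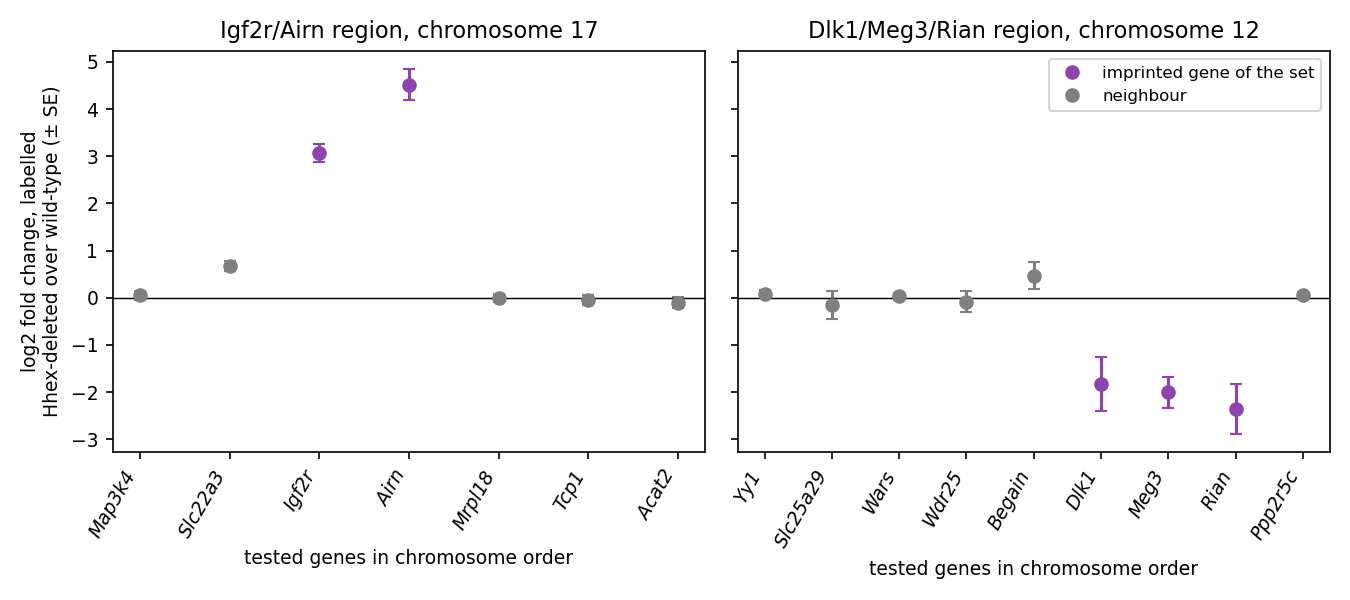
Log2 fold change, labelled Hhex-deleted over wild-type, of tested genes in chromosome order around Igf2r and Airn (left) and around Dlk1, Meg3 and Rian (right), with bars of ± 1 SE. The imprinted genes of the set, in purple, lie far from 0 (Airn at 4.52, Rian at -2.36), while the neighbours in grey lie between -0.15 and 0.67. The set was chosen with its fold changes known.

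H19, the maternally read non-coding RNA beside Igf2, was near the limit of detection in every library. It had 3 and 8 reads in labelled Hhex-deleted libraries and 6 and 7 reads in wild-type libraries, and the groups overlapped. The pooled ratio was 0.798, with an exact 95% interval of 0.324 to 1.93, so a difference was not detectable at this depth. Igf2 itself, the growth factor gene that shares enhancers with H19, stood at 0.0685 and 0.199 CPM in labelled Hhex-deleted libraries and at 0.292 and 0.105 CPM in wild-type libraries. None of the tested neighbours Mrpl23, Lsp1, Tnni2 and Tnnt3 passed edgeR's test, and their log2 fold changes were 0.05, -0.33, -0.25 and -0.93.

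The single genes did not share a direction. Ndn, which encodes necdin, a growth suppressor that restrains division of stem cells, had 3.08 and 3.38 CPM in labelled Hhex-deleted libraries and 2.74 and 4.31 CPM in wild-type libraries. The wild-type values enclosed the others, and the log2 fold change was -0.12 ± 0.29 (SE). Leaving out labelled Hhex-deleted replicate 1 gave -0.06, leaving out wild-type replicate 1 gave -0.41, and leaving out wild-type replicate 2 gave 0.25. Mkrn3, its tested neighbour, stood at a log2 fold change of -0.16, and Magel2 had no read.

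Grb10 encodes an adaptor that dampens signalling from insulin and insulin-like growth factor receptors. It had 39.7 and 18 CPM in labelled Hhex-deleted libraries and 17 and 20.3 CPM in wild-type libraries. The high value came from labelled Hhex-deleted replicate 1, which also carried Xist RNA, and the other library of that label lay between the wild-type libraries. The log2 fold change was 0.63 ± 0.43 (SE) over all libraries, -0.05 without labelled Hhex-deleted replicate 1 and 1.1 when replicate 2 of that label was left out instead. Its neighbours Ikzf1, which encodes the lymphoid transcription factor Ikaros, and Fignl1 stood at 0.25 and 0.08 and did not pass the test. Peg3, a paternally read zinc finger gene, had 3 and 3 reads in labelled Hhex-deleted libraries and 1 and 0 reads in wild-type libraries. The pooled ratio was 5.66, with an exact 95% interval of 0.687 to 260 that includes no difference.

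**Figure D3:**
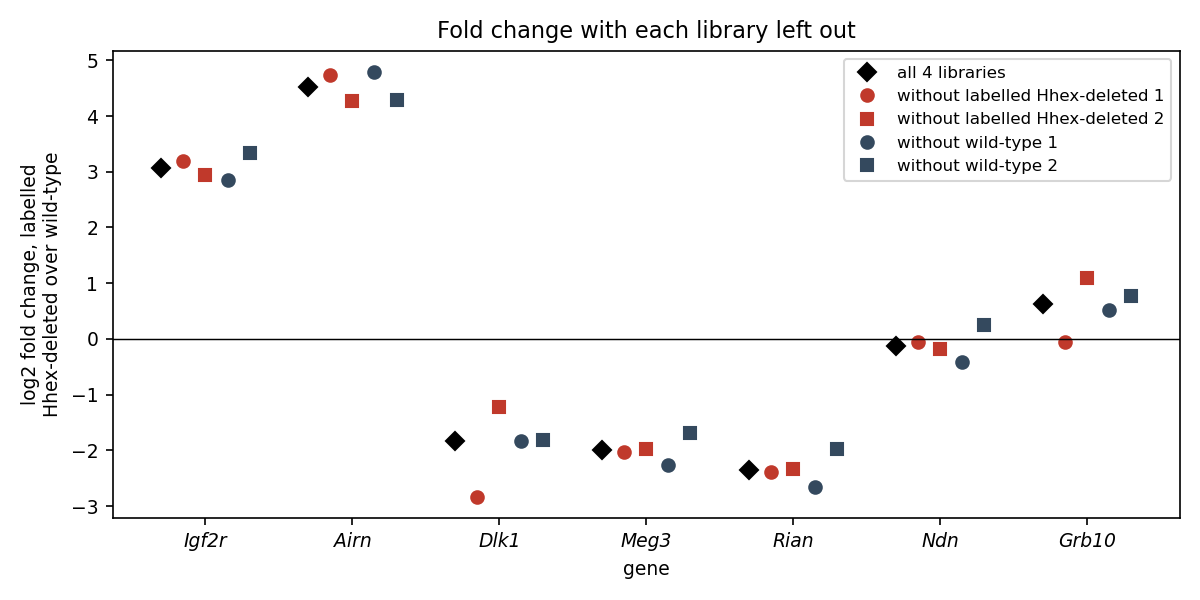
Log2 fold change, labelled Hhex-deleted over wild-type, of the 7 imprinted genes that passed the low-count filter, fitted with all 4 libraries (black) and with each library left out in turn. Igf2r (2.85 to 3.34) and Airn (4.27 to 4.79) stay high and Meg3 (-2.26 to -1.68) stays low, Dlk1 spreads from -2.83 to -1.23, and Ndn and Grb10 cross 0.

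In all, 7 of the 10 genes passed the low-count filter, and Airn, Dlk1 and Rian passed it only through the group in which they were higher. In the edgeR fit, Igf2r, Airn and Meg3, 3 genes of the set, were past an adjusted p of 0.05, as were 2.6% of the 14912 genes tested. Under other settings the set had again 3 genes past the threshold with no low-count filter (2.85% of all genes), with DESeq2 size factors (2.41%) and with DESeq2 (6.86%). It had 2, Igf2r and Airn, with the replicate number as a block (2.11% of all genes), with limma-voom (2.25%) and with limma on the deposited log2 RPKM values (1.41%), which lack Meg3. Meg3 also missed the threshold whichever library was left out. With wild-type replicate 1 left out the set had 2 genes past it (1.7% of all genes), and the same number with wild-type replicate 2 (0.81%) or labelled Hhex-deleted replicate 1 (3.91%) left out. Leaving out replicate 2 of the labelled Hhex-deleted group gave 3 (2.38%), where Grb10 joined. The groups did not overlap for 5 of the 7 tested, Igf2r, Airn, Dlk1, Meg3 and Rian, and neither did they for 45.5% of tested genes, 21.9% higher and 23.7% lower. Nothing is read from these counts, because the comparison itself informed the choice of genes. Igf2r ranked 75th from the highest and Airn 21st by fold change among tested genes, while Rian ranked 24th, Meg3 47th and Dlk1 65th from the lowest.

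Ordered by level per length (RPKM, which is CPM divided by gene length in kilobases), the genes took a different order in the groups. In labelled Hhex-deleted libraries Igf2r led with 16.9 ± 2.22 RPKM, then Grb10 with 5.6 ± 2.98, Airn with 3.6 ± 0.811 and Ndn with 1.96 ± 0.128 RPKM (SD, n = 2). Grb10 and Airn did not differ beyond their spread there. In wild-type libraries Grb10 led with 3.62 ± 0.453 RPKM, then Ndn with 2.13 ± 0.672 and Igf2r with 2.01 ± 0.468 RPKM (SD, n = 2), and Ndn and Igf2r did not differ beyond their spread. Meg3, Rian, Airn and Dlk1 followed in wild-type between 0.221 and 0.152 RPKM. In labelled Hhex-deleted libraries H19, Meg3, Dlk1 and Rian stood between 0.0704 and 0.0376 RPKM, with Peg3 at 0.0153 RPKM and Mirg without reads. Among 19482 genes with reads, 70% had a lower RPKM than Igf2r in labelled Hhex-deleted libraries, against 40.5% in wild-type libraries. For Airn these shares were 45.7% and 23%. Igf2r alone gave 72.9% and 83.8% of the reads of the 10 genes in labelled Hhex-deleted libraries, against 38.4% and 40.8% in wild-type libraries.

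Genes with the most similar profile over the 4 libraries were taken by the distance between log2 CPM values centred on their mean. For Igf2r they were Igll1 (distance 0.23), Lpxn (0.28) and Fat1 (0.28). For Airn they were Tnfrsf19 (0.28), Lef1 (0.43) and 2610019F03Rik (0.49). Meg3 was closest to Erich5 (0.16), Trem3 (0.18) and 2010012P19Rik (0.22). With 4 libraries in 2 groups, this likeness mostly records a similar difference between groups.

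Of 69 other imprinted genes in the count table, 46 were tested. In the edgeR fit 2 rose, none fell, and 9 had an unadjusted p under 0.05, against 15.8% of all genes. DESeq2 called 3 and limma-voom 2, against 6.86% and 2.25% of all genes. Their median log2 fold change was -0.03, against -0.01 over all genes tested, and they ran from -1.38 to 0.84. Igf2r, Airn, Dlk1, Meg3 and Rian lay outside this range. Nothing is read from that, because the set was chosen with its fold changes known. The 2 that rose were Slc22a3, described above, and Osbpl5, a lipid transfer protein gene of the Kcnq1 cluster. Osbpl5 stood at 33.4 and 36.1 CPM in labelled Hhex-deleted libraries and at 23 and 22.9 CPM in wild-type libraries, 0.60 ± 0.1 (SE) on the log2 scale with an edgeR adjusted p of 0.0396. Osbpl5 missed the threshold when labelled Hhex-deleted replicate 2 (edgeR adjusted p = 0.0883), wild-type replicate 1 (0.164) or wild-type replicate 2 (0.222) was left out. The share that rose or fell was 1.48% and 1.12% over all genes tested.

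**Figure D4:**
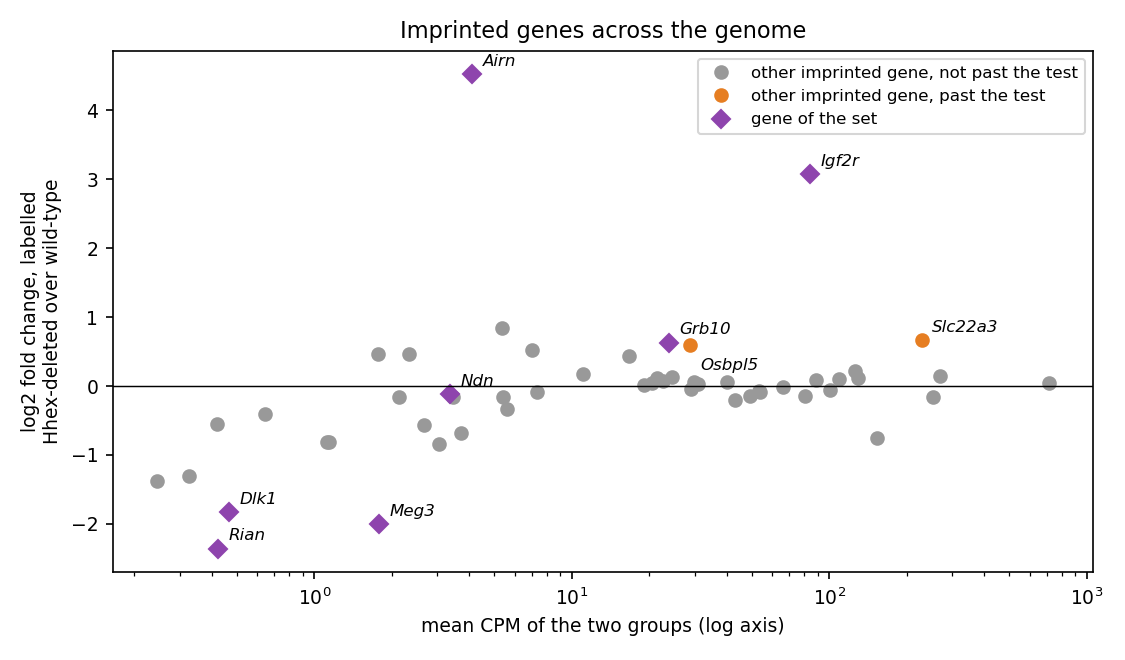
Log2 fold change, labelled Hhex-deleted over wild-type, against the mean CPM of the groups on a log axis, for 46 other imprinted genes (circles) and the 7 tested genes of the set (purple diamonds). Igf2r and Airn lie above and Dlk1, Meg3 and Rian below the band from -1.38 to 0.84 that holds the other imprinted genes. The set was chosen with its fold changes known, so this contrast is a description only.

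Genes that act with Igf2r and Grb10 in insulin-like growth factor signalling were examined as a list of 23, of which 17 were tested. In the edgeR fit 2 rose, against 1.48% of all genes tested, and 1 fell, against 1.12%. DESeq2 called 4 and limma-voom 3, against 6.86% and 2.25% of all genes. Irs1, an adaptor below the insulin and insulin-like growth factor 1 receptors, rose, with 206 and 218 reads in labelled Hhex-deleted libraries and 2 and 2 reads in wild-type libraries (edgeR adjusted p = 0.00212). With so few wild-type reads its pooled ratio of 100 has an exact 95% interval of 38.8 to 369, counting error only. Igfbp7, a secreted binding protein, stood at 11.3 and 7.56 CPM in labelled Hhex-deleted libraries and at 2.44 and 2.31 CPM in wild-type libraries (log2 fold change 1.99 ± 0.26 SE, edgeR adjusted p = 0.0226). Igfbp4, another binding protein, fell to 394 and 361 CPM in labelled Hhex-deleted libraries, against 624 and 685 CPM in wild-type libraries (log2 fold change -0.79 ± 0.09 SE, edgeR adjusted p = 0.0159). The call of Igfbp7 was lost without wild-type replicate 1 (edgeR adjusted p = 0.0656) or wild-type replicate 2 (0.0994), and that of Igfbp4 without wild-type replicate 2 (0.0755).

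The receptors of this pathway did not pass the test. Igf1r, the signalling receptor of both insulin-like growth factors, stood at 132 and 113 CPM in labelled Hhex-deleted libraries and at 141 and 146 CPM in wild-type libraries (log2 fold change -0.23, edgeR adjusted p = 0.322). Insr stood at a log2 fold change of 0.01, and the ligand gene Igf1 at 1.52 (edgeR adjusted p = 0.0687). The median of the list was 0.14, against -0.01 over all genes tested.

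Factors that set or protect imprints were a list of 20, of which 17 were tested and none passed edgeR's test. An unadjusted p under 0.05 was found for 3 of them, against 15.8% of all genes tested. DESeq2 called 0 and limma-voom 0, against 6.86% and 2.25% of all genes. The maintenance methyltransferase gene Dnmt1 stood at 558 and 522 CPM in labelled Hhex-deleted libraries and at 525 and 542 CPM in wild-type libraries. The corepressor gene Trim28 stood at a log2 fold change of 0.02, the zinc finger genes Zfp57 and Zfp445 at -0.08 and -0.01, and the insulator factor gene Ctcf at 0.12. The smallest p-values were those of the methyltransferase gene Dnmt3b, with a log2 fold change of 0.32 (edgeR adjusted p = 0.177), and Zfp568, with -0.36 (edgeR adjusted p = 0.198).

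The cell populations behind the libraries bear on genes that mark quiescent stem cells. In bulk RNA, fewer cells of a type and less RNA per cell cannot be told apart. Of 28 long-term stem cell genes, all tested, 1 rose and 1 fell in the edgeR fit, against 1.48% and 1.12% of all genes tested. Mllt3, a regulator of stem cell maintenance, rose (log2 fold change 0.68 ± 0.11 SE, edgeR adjusted p = 0.0361). The transglutaminase gene Tgm2 fell (-0.94 ± 0.16 SE, edgeR adjusted p = 0.0468), and the list median was 0.11. Mllt3 and Tgm2 both missed the threshold when labelled Hhex-deleted replicate 2 (edgeR adjusted p = 0.0761 and 0.0978), wild-type replicate 1 (0.0658 and 0.0624) or wild-type replicate 2 (0.168 and 0.229) was left out. On the deposited log2 RPKM values both missed it as well (limma adjusted p = 0.0885 and 0.0874), and Tgm2 also with DESeq2 size factors (edgeR adjusted p = 0.0519) and with limma-voom (0.0529). DESeq2 called 6 genes of this list, against 6.86% of all genes, and limma-voom 1, against 2.25%. The summed level of the list was 2220 and 2640 CPM in labelled Hhex-deleted libraries and 2180 and 2310 CPM in wild-type libraries.

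Of 15 multipotent and lymphoid primed progenitor genes, 6 rose in the edgeR fit, against 1.48% of all genes tested. This list, like the others, was drawn up with earlier results of these data known, so nothing is read from its count. The log2 fold changes were 3.58 for Rag1, 3.25 for Igll1, 2.98 for Il7r, 2.78 for Vpreb1, 2.03 for Dntt and 0.63 for Cd48. Cd48 and Dntt missed the threshold without wild-type replicate 1 (edgeR adjusted p = 0.0652 and 0.084) or wild-type replicate 2 (0.137 and 0.132). Of 20 mature blood cell genes, 17 were tested and 5 rose, against 1.48% of all genes tested. Among the 5 were the mast cell genes Ms4a2 (2.71) and Cpa3 (2.26), the B cell gene Cd79a (2.49) and the macrophage gene C1qa (2.27). Without wild-type replicate 2 only 3 of them were past the threshold, with C1qa at an edgeR adjusted p of 0.0883 and Cd79a at 0.0713, and Cd79a also missed it without wild-type replicate 1 (0.0886) or replicate 2 of the labelled Hhex-deleted group (0.051). That list summed to 1500 and 1480 CPM in labelled Hhex-deleted libraries, against 824 and 903 CPM in wild-type libraries. Much of the difference between these sums was Cpa3, at 578 and 533 CPM in labelled Hhex-deleted libraries and 125 and 106 CPM in wild-type libraries, and part was the platelet gene Itga2b, which did not pass the test, at 413 and 318 CPM against 279 and 245 CPM. The part of these shifts in the levels of Igf2r, Airn, Dlk1, Meg3 and Rian was not tested.

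Genes of marrow stroma, mesenchymal cells in which Meg3, Dlk1 and H19 can be active, were mostly near 0. Of 12 stroma genes, 8 were under 1 CPM in every library, among them the collagen genes Col1a1 and Col3a1 and the receptor genes Lepr and Pdgfra. The list summed to 78.7 and 105 CPM in labelled Hhex-deleted libraries and to 92.9 and 97.3 CPM in wild-type libraries. Pdgfrb made up most of these sums, at 68.5 and 92.6 CPM in labelled Hhex-deleted libraries and 78.8 and 76 CPM in wild-type libraries, so they say little of the other stroma genes. None of the 4 tested genes passed edgeR's test, and 1 had an unadjusted p under 0.05, against 15.8% of all genes tested. DESeq2 called 1 and limma-voom 0, against 6.86% and 2.25% of all genes. Bgn was the gene concerned, and it encodes the matrix proteoglycan biglycan. Bgn stood at 3.43 and 7.56 CPM in labelled Hhex-deleted libraries and at 10.7 and 17.8 CPM in wild-type libraries (log2 fold change -1.37 ± 0.46 SE, edgeR adjusted p = 0.257). Its groups did not overlap, and it lay on the same side as Meg3, Rian and Dlk1, while Col1a2 and Cxcl12 stood at log2 fold changes of 1.09 and 0.93. The part of stroma cells in the levels of Meg3, Rian and Dlk1 was not tested. Of 10 endothelial genes 9 were tested and 1 fell, against 1.12% of all genes tested. It was the receptor gene Tie1 (log2 fold change -0.68 ± 0.09 SE, edgeR adjusted p = 0.0227), a call lost when either wild-type library was left out. Cdh5, which defines endothelium, stood at 0.617 and 0.796 CPM in labelled Hhex-deleted libraries and at 0.109 and 0.105 CPM in wild-type libraries.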

How the data were processed

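Per the labels' protocols, libraries were built from the RNA of sorted LSK cells with a TruSeq RNA kit (Illumina). The authors deposited raw read counts per Entrez gene with gene lengths, and log2 RPKM values for 12662 genes, a table that holds 4 of the 10 imprinted genes. Subread, featureCounts, limma and the build mm9 are named in the submitters' processing notes. No version, strand setting or treatment of multiply mapped reads is stated there. Promoter sequences and gene order came from RefSeq on GRCm38.p6, another build, so no coordinates of counted genes are given.

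The model of the deposited counts used edgeR 4.0.16 in R 4.3.3. Genes were filtered with filterByExpr (minimum count 10, minimum total 15), which left 14912, and scaled by TMM. A robust quasi-likelihood model with group as its term was fitted to all 4 libraries, with Benjamini-Hochberg adjustment over all tested genes at 0.05. The biological coefficient of variation was 16.3%. CPM is scaled to the TMM-adjusted total of tested genes, and RPKM divides it by the deposited gene length. Fitted fold changes use a prior count of 0.125. The SE is the log2 fold change divided by the square root of F, an approximation. A floor of 3 counts is 0.0995 to 0.109 CPM. Intervals and floors cover counting error only.

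The imprinted genes and all gene lists were chosen with earlier results of these data known. Of the other imprinted genes listed, Zim2, Zim3 and Zfp264 were not matched. The text names all 10 genes, up to 6 called genes of each list by p (or the 2 with the smallest p), measured neighbours, and the 3 most similar profiles. Some genes that this rule names are not reported here. Marker and receptor genes described without a call were chosen after their values were seen. Alternatives were no low-count filter, DESeq2 size factors, DESeq2 1.42.0, limma-voom (limma 3.58.1), limma on the deposited log2 RPKM values, a replicate block, and each library left out. Scripts were tested on simulated data.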

Additional observations from a re-analysis of the deposited data

How the results depend on the processing

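Igf2r and Airn were past the threshold under the 6 alternatives that kept all libraries, as were 1.41% to 6.86% of all genes. Meg3 was past it under 3 of the 5 that could be fitted. With a library left out, log2 fold changes ran from 2.85 to 3.34 for Igf2r and from 4.27 to 4.79 for Airn. Nothing is read from these calls, because the set was chosen with its fold changes known. Airn also passed the low-count filter only through the group in which it was higher. The deposited log2 RPKM values do not cover Meg3, Rian and Dlk1, and of the genes of the set that they cover 0 were lower. The number of the 10 genes lower was 1 in the reported fit, 0 with limma-voom and 0 with the replicate block. With a library left out, 2 to 3 of the 10 genes were higher, the third being Grb10 without labelled Hhex-deleted replicate 2, and 0 were lower, whichever library it was. Over all genes, 221 higher and 167 lower became 493 and 507 with DESeq2 and 114 and 65 with limma on deposited log2 RPKM values, and 272 were lower with no low-count filter. They ran from 84 to 366 higher and from 40 to 231 lower with a library left out. Of the other imprinted genes, 0 were higher with the replicate block and 0 with log2 RPKM values, and 0 to 1 were higher and 0 to 1 lower with a library left out. The gene that was lower, 1 with no low-count filter and 1 with DESeq2, was Gatm (log2 fold change -0.75 and -0.74). Over the remaining lists 18 genes were called, 29 with DESeq2 and 8 to 23 with a library left out. The share of all genes tested that was called was 2.6% in the reported fit and 6.86% with DESeq2. So the rise in calls with DESeq2 was not particular to these lists. Calls over all genes also varied with the library left out, as given above. The labels do not say that a replicate number marks a shared source. The deviations of same-numbered libraries correlated at 0.326 over 14912 genes, but with 2 pairs this does not settle whether the numbers pair the libraries. With the replicate block 185 genes were higher and 130 lower, Bgn was called lower, and Osbpl5, Slc22a3, Mllt3, Tgm2 and Cd48 missed the threshold (edgeR adjusted p = 0.0585, 0.0613, 0.0726, 0.0908 and 0.0502). The cause of these differences was not tested. Depth limits what can be said of Mirg, H19 and Peg3, which had 0 to 8 reads per library.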

Other observations

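Osbpl5 belongs to the Kcnq1 cluster of chromosome 7, whose other measured genes did not pass the test. Its paternally read antisense RNA, Kcnq1ot1, stood at 19.6 and 24.8 CPM in labelled Hhex-deleted libraries and at 21.7 and 19.5 CPM in wild-type libraries, with groups that overlapped. The kinase inhibitor gene Cdkn1c stood at 1.27 and 3.12 CPM in labelled Hhex-deleted libraries and at 3.47 and 4.38 CPM in wild-type libraries (log2 fold change -0.84, edgeR adjusted p = 0.462). Phlda2 and Slc22a18, which are read from the maternal copy like Cdkn1c, stood at log2 fold changes of -0.81 and -0.68 and also lay lower in both labelled Hhex-deleted libraries without passing the test (edgeR adjusted p = 0.363 and 0.218). Cd81 and Nap1l4 stood at 0.11 and 0.15, each higher in both labelled Hhex-deleted libraries and not past the test. Ascl2, with 2 to 13 reads per library, stood at -1.3 without overlap of the groups (edgeR adjusted p = 0.461). Tssc4 stood at -0.15 with overlap (edgeR adjusted p = 0.772). Groups did not overlap for 45.5% of all genes tested.

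Peg12, a paternally read gene of the Ndn region, stood at 8.63 and 7.89 CPM in labelled Hhex-deleted libraries and at 5.69 and 5.85 CPM in wild-type libraries (log2 fold change 0.52, edgeR adjusted p = 0.225), while Ndn and Mkrn3 of the same region overlapped between groups. Gatm, a creatine synthesis enzyme gene imprinted in placenta, stood at 116 and 112 CPM in labelled Hhex-deleted libraries and at 166 and 217 CPM in wild-type libraries (log2 fold change -0.75, edgeR adjusted p = 0.0568).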
